A study of Mus musculus with 10 samples.

Results

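The wildtype cultures of mouse O9-1 cells were described on their own: 4 of the 10 libraries of the series (WT/1 to WT/4), chosen by their labels and not by any measured value. O9-1 is a line of the cranial neural crest, which the study describes as tetraploid. The cells carry no edited gene, and were kept with serum and FGF2 on Matrigel, in sterile-filtered medium conditioned by inactivated STO fibroblasts. The study calls the 4 samples biologically independent, and with a single group no comparison between conditions and no test was made. Levels between cultures are CPM, the reads of a gene as a share of all counted reads, with library sizes scaled by TMM, and levels between genes are TPM, the same kind of share after division by exon length, given as means of the 4 cultures.

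The neural crest arises at the border of the neural plate, where factors such as *Pax3*, *Pax7*, *Zic1* and *Msx1* are active. Specifiers such as *Foxd3*, *Sox10*, *Snai2* and *Tfap2a* then mark cells that leave the neural tube, and *Twist1* and *Prrx1* accompany the turn of cranial crest into facial mesenchyme, the source of cartilage, bone and connective tissue of the face. Crest cells that settle in the first pharyngeal arch do so without *Hox* gene expression, while those of more posterior arches carry a *Hox* code.

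Between 30968945 and 44776201 reads per library were counted on genes, and 1 CPM stood for 31.0 to 44.6 reads. Genes of the mitochondrial genome took 1.20% to 2.43% of the reads and the 20 most abundant genes 7.91% to 9.17%. The libraries were not equally alike. Over the 11249 genes detected in every culture, log2 CPM of WT/1 and WT/4 correlated at r = 0.993, those of WT/2 with WT/1 and WT/4 at 0.981 and 0.976, and WT/3 with the others at 0.955 to 0.967. These are correlations across genes, which are not independent replicates. Even the closest pair differed by more than sampling noise, with a chi-square per degree of freedom of 26.1, and each culture was counted as 1 sample. WT/3 stood furthest apart, and WT/2 next.

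A gene was called detected with at least 1 CPM in each culture, at the floor with at most 3 counts in each culture (0.0673 to 0.0968 CPM, which is also the level that a count of 0 allows), and low otherwise. Of the 43346 genes of the table, 11249 were detected (26.0%), 5111 were low and 26986 were at the floor (62.3%). Of 21474 protein-coding genes, 10685 were detected (49.8%). These shares are the background for all counts of detected genes.

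The markers given for these cells were all present. *Twist1* (ENSMUSG00000035799, GRCm38 chromosome 12, 33957671 to 33959829, plus strand), a basic helix-loop-helix factor of cranial mesenchyme, was at 80.3, 62.3, 77.1 and 65.0 CPM in WT/1 to WT/4 (71.2 ± 8.86, SD, n = 4). *Snai2* (ENSMUSG00000022676, chromosome 16, 14705852 to 14709385), a zinc finger repressor of epithelial genes, was at 31.1, 19.5, 24.5 and 35.3 CPM (27.6 ± 6.99). *Pdgfra* (ENSMUSG00000029231, chromosome 5, 75152292 to 75198215), the receptor for PDGF-A and PDGF-C, was at 121, 105, 138 and 134 CPM (125 ± 14.9). *Cd44* (ENSMUSG00000005087, chromosome 2, 102811141 to 102901665), a hyaluronan receptor, was at 425, 533, 331 and 540 CPM (457 ± 99.2). The highest culture exceeded the lowest by 1.29-fold to 1.81-fold for these genes, and WT/2 was lowest for *Twist1*, *Snai2* and *Pdgfra* but not for *Cd44*. Per length, *Cd44* was highest (218 TPM), followed by *Twist1* (141 TPM), *Snai2* (44.2 TPM) and *Pdgfra* (40.2 TPM).

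Of 27 neural crest specifiers, 16 were detected, 5 were low and 6 were at the floor. The detected ones were led by *Myc* (167 TPM), *Twist1*, the helix-loop-helix inhibitor *Id3* (98.2 TPM), the nuclear receptor *Nr2f1* (74.4 TPM) and *Sox9* (51.7 TPM), a factor of crest and cartilage. *Ets1*, *Snai1*, *Zeb1*, *Zeb2*, *Nr2f2* and *Tfap2a* were also detected, at 6.68 to 42.5 TPM. By contrast, *Foxd3*, *Sox10*, *Pax7* and *Zic1* had 0 counts in each culture, *Sox8* and *Rxrg* had 1 count in a single library, and *Pax3* was at 0.0869 to 0.185 CPM. *Msx1* was detected, at 6.49, 7.47, 49.6 and 5.34 CPM in WT/1 to WT/4, with WT/3 far above the others.

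Of 13 surface and filament genes of the neural crest, 9 were detected. Vimentin (*Vim*), the intermediate filament of mesenchymal cells, stood at 4779 TPM, the semaphorin receptors *Plxna1* and *Nrp2* at 103 and 77.0 TPM, and N-cadherin (*Cdh2*) at 75.1 TPM. The neurotrophin receptor *Ngfr*, often used to sort crest cells, was low (0.0869 to 0.291 CPM), as was the endothelin receptor *Ednrb* (0 to 0.0968 CPM), and *Itga4* was at the floor. Nestin (*Nes*) was at 28.8, 116, 42.7 and 32.9 CPM, with WT/2 highest.

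**Figure D1:**
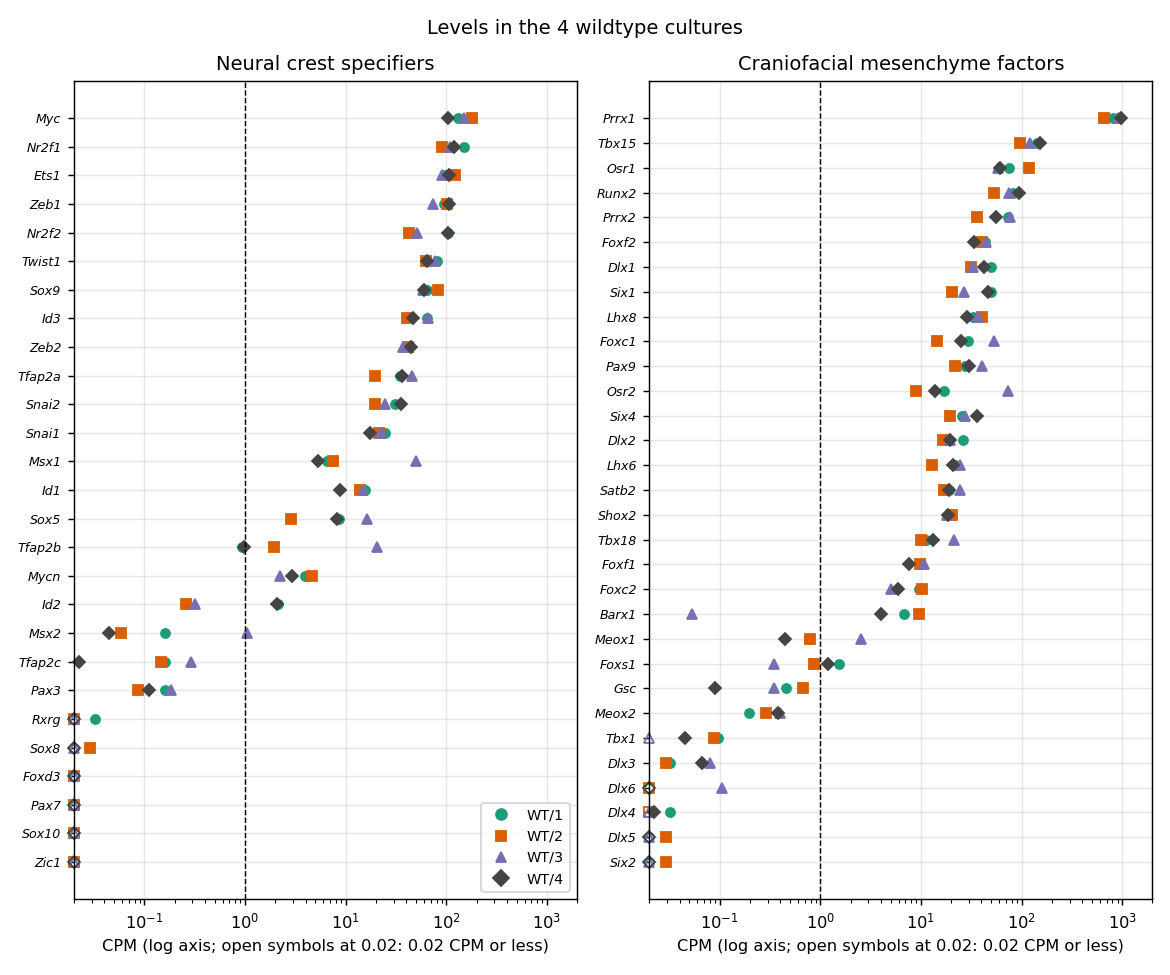
CPM of 27 neural crest specifiers (left) and of the craniofacial mesenchyme factors with at least 1 count in a library (right) on a log axis, 1 symbol per wildtype culture. The dashed line marks 1 CPM, and open symbols at the left edge stand for 0.02 CPM or less. *Prrx1* is the highest gene on the right, *Foxd3*, *Pax7*, *Sox10* and *Zic1* have 0 counts in each culture, and *Barx1*, *Msx1*, *Osr2* and *Tfap2b* show WT/3 apart from the others.

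Of 40 factors of craniofacial mesenchyme, 20 were detected (50%, near the 49.8% of all protein-coding genes), 6 were low and 14 were at the floor. *Prrx1*, a paired-type homeobox gene of facial and limb mesenchyme, led with 818.5, 653, 907 and 967 CPM (245 TPM). It was followed by *Osr1* (121 TPM), *Tbx15* (111 TPM) and *Prrx2* (99.5 TPM). *Foxf2* (55.4 TPM), *Lhx8* (44.1 TPM), *Lhx6* (13.5 TPM), *Dlx1* (23.3 TPM), *Dlx2* (23.1 TPM), *Pax9* (19.1 TPM) and *Runx2* (27.9 TPM), which act in the jaw, palate and tooth mesenchyme or in bone, were detected as well. *Alx1* and *Alx4*, homeobox genes of the frontonasal region, had 0 counts in each culture, and so had *Hand1*, *Hand2*, *Pitx1*, *Tbx22* and *Tcf21*. *Dlx5*, which marks the lower part of the pharyngeal arches together with *Hand2*, was at the floor, and *Dlx6* was at 0.106 CPM in WT/3 with 0 counts in the others. *Dlx1* and *Dlx2*, by comparison, are active in both the upper and the lower part.

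All 39 genes of the *Hox* clusters were at the floor, with 3 counts in all over the 4 libraries. Of 11 further head and hindbrain patterning genes, *En1* (17.1 TPM) and *Emx2* (13.2 TPM) were detected, each with less than 2-fold between the highest and the lowest culture. *Emx2* was at 12.1, 12.4, 12.6 and 12.1 CPM. *Otx1*, *Otx2*, *Gbx2*, *En2*, *Emx1*, *Pax2* and *Pax8* had 0 counts in each culture. *Xist*, the RNA of the inactive X chromosome, was at 703, 741, 587 and 825 CPM, while *Ddx3y*, *Kdm5d*, *Eif2s3y* and *Uty* of the Y chromosome had 0 counts in each culture.

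Markers of other cell types were mostly low or at the floor. Over 14 lists with 113 entries, 18 entries were detected, 32 were low and 63 were at the floor. In the lists for endothelium, epithelium and striated muscle, none of 8, 10 and 9 genes was detected. Of 11 pluripotency genes, *Sox2* alone was detected, at 41.6, 42.5, 50.2 and 33.7 CPM, and *Sox2* was also the sole detected gene among 7 neural progenitor markers. *Pou5f1* had 0 counts in each culture and *Nanog* at most 2. Among 8 blood cell markers, *Cd68* alone was detected (14.0 TPM), with *Ptprc* at the floor. Among 10 neuron markers this held for *Tubb3* (6.35 TPM), and among 7 melanocyte markers for *Mitf* (7.10 TPM), the melanocyte enzymes *Tyr*, *Tyrp1* and *Dct* having 0 counts. Of 8 markers of glia, 3 were detected, among them *Erbb3* (1.15 TPM) and *Mbp* (1.10 TPM).

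Of 8 osteoblast markers, 3 were detected, among them the transcription factor *Runx2* (27.9 TPM). Osteopontin (*Spp1*), a secreted protein of bone matrix that many other cells also make, was at 4432, 3340, 5273 and 4678 CPM (8700 TPM), whereas alkaline phosphatase (*Alpl*) and bone sialoprotein (*Ibsp*) had 0 counts in each culture and *Sp7* was at 0.0869 to 0.613 CPM. Of 8 chondrocyte markers, *Sox9* and aggrecan (*Acan*, 7.95 TPM) were detected, and *Col2a1* was at 0.0323 to 0.337 CPM. Of 10 smooth muscle markers, *Smtn* (38.4 TPM) and *Acta2* (15.1 TPM) were detected, and *Tagln*, *Cnn1* and *Myh11* were low. Of 3 tendon markers, *Scx* (55.1 TPM) and *Mkx* (6.79 TPM) were detected, with *Tnmd* at 0 counts, and of 6 adipocyte markers *Pparg* alone (5.27 TPM). In bulk RNA, a low level in all cells and a higher level in few cells cannot be told apart.

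Of 12 surface genes listed for mesenchymal stromal cells, 10 were detected, among them *Itgb1* (553 TPM), *Cd34* (194 TPM), *Ly6a* (159 TPM) and *Alcam* (128 TPM). *Thy1* was low (0.129 to 0.608 CPM). The list did not separate genes used for their presence from genes used for their absence, so the count is no measure of identity. *Ly6a*, which codes for Sca-1, was at 33.2, 40, 131 and 31.7 CPM, highest in WT/3. *Cd34* was at 281, 530, 649 and 294 CPM, higher in WT/2 and WT/3 than in the other cultures.

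Among single genes, the translation factor *Eef1a1* took the most reads (11549 ± 402 CPM, SD, n = 4), followed by *mt-Co1* (7568 ± 2832), *Vim* (7025 ± 833), the chaperone *Hsp90ab1* (5600 ± 200.2), *Eef2* (5374 ± 675) and *Spp1* (4431 ± 809). The glycolytic enzymes *Pkm* and *Gapdh*, the collagen gene *Col1a2* and *Lgals1*, a galectin, completed the first 10. *mt-Co1* was at 6229, 5393, 11709 and 6942 CPM, highest in WT/3. Per length, *Crabp1*, which codes for a cytoplasmic retinoic acid binding protein, *Lgals1* and *S100a4*, a calcium-binding protein of fibroblasts, followed *Eef1a1* (14953 TPM) and *mt-Co1* (15872 TPM) with 12090, 11637 and 10065 TPM. *Crabp1* was at 3060, 2526, 4109 and 2330 CPM. Among the 20 genes of highest TPM were 5 of ribosomal proteins (*Rplp1*, *Rplp0*, *Rps15*, *Rps2* and *Rpl8*), 3 of the mitochondrial genome and 3 annotated as microRNA genes. The latter were *Gm23935*, *Mir6236* and *Gm24187*, and the first and last of them span 57 bases. Division by a short length raises TPM, and *Gm23935*, first by TPM, was at 595, 725, 279 and 46.4 CPM. Polyadenylated RNA was selected for these libraries, and what the reads on these short genes come from was not tested.

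Promoter sequences were taken from RefSeq on GRCm38.p6, from 250 bases before to 50 after the most upstream start of each gene. They were matched for 8680 of 10685 detected protein-coding genes (81.2%). The median CpG ratio (observed over expected CG dinucleotides) was 0.794 in these promoters, against 0.389 over all 27025 promoters of the reference, which include those of genes that code for no protein. Over the 16743 matched promoters of protein-coding genes of the table, detected or not, it was 0.602. The motif TATAAA, searched on the coding strand between 40 and 16 bases before the start, was present in 1.01% of promoters of detected genes, in 2.85% of those of protein-coding genes and in 2.21% of all promoters. On either strand anywhere in the 300 bases, TATAAA was present in 6.42%, 12.9% and 14.2%. With 78.0% of the protein-coding genes matched, their values are incomplete. In 4 equal groups of the detected genes by TPM, the share with TATAAA near the start was 1.11%, 0.968%, 0.461% and 1.52% from the lowest to the highest. A comparison with genes at the floor, or between genes by their variation, was not drawn here. A matched promoter was found for 74.9% of the former and for 73.0% of the genes that varied at least 4-fold, smaller shares than of the detected genes.

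The 120 bases before the start are shown for 6 genes: *Twist1* as an identity marker, *Vim* and *Spp1* as abundant genes with and without TATAAA near the start, and *Barx1*, *Peg3* and *Grb10*, which are among the 20 genes of largest spread between cultures and are described later. Capitals mark TATAAA in *Vim* and CG dinucleotides in the others.
Twist1, chr12:33957551-33957670, plus strand: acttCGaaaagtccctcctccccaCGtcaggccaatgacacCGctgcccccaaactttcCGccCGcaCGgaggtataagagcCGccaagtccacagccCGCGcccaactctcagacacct
Vim, chr2:13574191-13574310, plus strand: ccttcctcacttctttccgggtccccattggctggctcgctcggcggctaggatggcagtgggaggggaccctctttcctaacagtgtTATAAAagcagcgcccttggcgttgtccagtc
Spp1, chr5:104434991-104435110, plus strand: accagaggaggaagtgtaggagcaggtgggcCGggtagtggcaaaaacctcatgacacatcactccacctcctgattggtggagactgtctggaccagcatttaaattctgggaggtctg
Barx1, chr13:48662916-48663035, plus strand: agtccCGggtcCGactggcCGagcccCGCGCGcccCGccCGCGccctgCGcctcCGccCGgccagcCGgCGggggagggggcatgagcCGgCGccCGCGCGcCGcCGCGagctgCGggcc
Peg3, chr7:6730420-6730539, minus strand: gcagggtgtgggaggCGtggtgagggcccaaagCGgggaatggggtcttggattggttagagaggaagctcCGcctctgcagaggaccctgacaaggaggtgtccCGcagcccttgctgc
Grb10, chr11:12037421-12037540, minus strand: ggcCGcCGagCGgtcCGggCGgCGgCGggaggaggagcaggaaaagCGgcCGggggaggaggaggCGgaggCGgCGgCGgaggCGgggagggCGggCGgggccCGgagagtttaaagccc

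In *Vim*, TATAAA began 32 bases before the start. The 300-base promoters of *Twist1*, *Barx1* and *Grb10* held 27, 50 and 45 CG dinucleotides (CpG ratio 0.827, 0.940 and 0.973), that of *Peg3* held 13 (0.463), and that of *Spp1*, among the most abundant transcripts, held 3 (0.195). These are descriptions of the letters in the windows, and no factor was shown to bind there.

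Transcription factors were counted in 23 families with 275 genes. Of these, 105 were detected (38.2%, below the 49.8% of all protein-coding genes), 34 were low and 136 were at the floor. The *Hox* genes made up 39 of the latter. *Tead* genes, the partners of YAP, were all detected (4 of 4, *Tead2* with 94.3 and *Tead1* with 75.4 TPM), as were the *Runx* genes (3 of 3). Of 7 *Fos* and *Jun* genes, 6 were detected, led by *Jund* (273 TPM), *Fosl1* (223 TPM) and *Jun* (199 TPM), whereas *Fos* itself was at 0.319 to 2.25 CPM. Of 44 *Fox* genes, 20 were detected, among them *Foxk2* (115 TPM) and *Foxm1* (104 TPM). Of 20 *Sox* genes, 7 were detected, led by *Sox4* (73.9 TPM), *Sox2* (65.8 TPM) and *Sox12* (55.0 TPM). In the *Pax* family *Pax9* alone was detected (1 of 9), and in the *Tfap2* family *Tfap2a* alone (1 of 5). All *Zic* genes were at the floor, while *Gli3* (19.7 TPM) and *Gli2* (1.33 TPM), the effectors of Hedgehog signals, were detected. Of 8 *Smad* genes, 6 were detected, led by *Smad4* (87.0 TPM). The 9 *Hes* and *Hey* genes include targets of Notch such as *Hes1*. Of them, *Hes6* (33.5 TPM) and *Hes1* (7.01 TPM) were detected, while *Hes5*, *Hey2* and *Heyl* had 0 counts in each culture.

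Receptors were counted in 24 families with 195 genes. Of these, 100 were detected (51.3%, near the 49.8% of all protein-coding genes), 39 were low and 56 were at the floor. *Axl*, the receptor for Gas6, had the highest level (560 TPM), at 893, 1001, 684 and 925 CPM. *Axl*, *Tyro3*, *Mertk*, *Ddr1* and *Ddr2*, counted together here, were all detected (5 of 5), with the collagen receptor *Ddr2* at 199 TPM. *Itgb1*, the common beta chain of many integrins, was at 553 TPM, and among alpha chains *Itga5* (122.6 TPM), *Itga3* (86.1 TPM) and *Itga6* (66.2 TPM), which bind fibronectin or laminin together with it, were highest. Of the 18 alpha chains, 8 were detected.

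For FGF, a component of the medium, *Fgfr1* was the main receptor (113 TPM), at 353, 190, 495 and 338 CPM, and *Fgfr2* was at 3.95 TPM. *Fgfr3* and *Fgfr4* were low. *Fgfr1* was lowest in WT/2 and highest in WT/3. Of the receptors that use gp130, *Il6st*, which codes for gp130 itself, was at 60.6 TPM. Its partners *Lifr* and *Osmr* were at 5.6 and 3.19 TPM, and both were highest in WT/3. *Lifr* was at 9.88, 8.17, 44.1 and 12.1 CPM and *Osmr* at 5.10, 4.58, 31.5 and 6.24 CPM.

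Several families, mostly receptors of morphogens, had 66.7% to 81.8% of their genes detected, against 49.8% of all protein-coding genes. In a family of 6 genes, 4 detected genes lie near that share. Of 13 receptors for TGF-beta and BMP, 10 were detected, led by *Bmpr1a* (81.0 TPM), *Tgfbr3* (66.3 TPM) and *Tgfbr2* (59.4 TPM). Of 15 Wnt receptors and coreceptors, 12 were detected, led by *Ryk* (124 TPM), *Fzd2* (86.5 TPM) and *Fzd7* (48.2 TPM). Of 6 genes of Hedgehog reception, *Gas1* (257 TPM), *Smo* (111 TPM), *Ptch1* (10.8 TPM) and *Cdon* (5.17 TPM) were detected. Of 6 retinoid receptors, *Rarg* (243 TPM), *Rxra* (69.4 TPM), *Rxrb* (44.4 TPM) and *Rara* (32.9 TPM) were detected, with *Rarb* at 0 counts. Of 11 plexins and neuropilins, 9 were detected, with *Plxnb2* at 199 TPM.

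Other families had 0% to 20% of their genes detected, below the 49.8% of all protein-coding genes, though most of them are small. Of 22 chemokine receptors, *Ackr3* (45.0 TPM) and *Cxcr4* (13.2 TPM) alone were detected and 18 were at the floor. *Cxcr4*, the receptor for Cxcl12, was at 6.07, 1.39, 15.5 and 6.39 CPM. None of the 4 neurotrophin receptors was detected, with *Ntrk2* and *Ntrk3* at the floor. Neither endothelin receptor met the limit in every culture. Their sum, nearly all from *Ednra* (0.947 TPM), was 1.52, 3.10, 0.687 and 1.46 CPM in WT/1 to WT/4, below 1 CPM in WT/3 alone. *Kit*, *Flt3*, *Kdr*, *Tie1* and *Flt4* were at the floor, while *Flt1* (36.3 TPM) and *Met* (65.1 TPM) were detected.

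**Figure D2:**
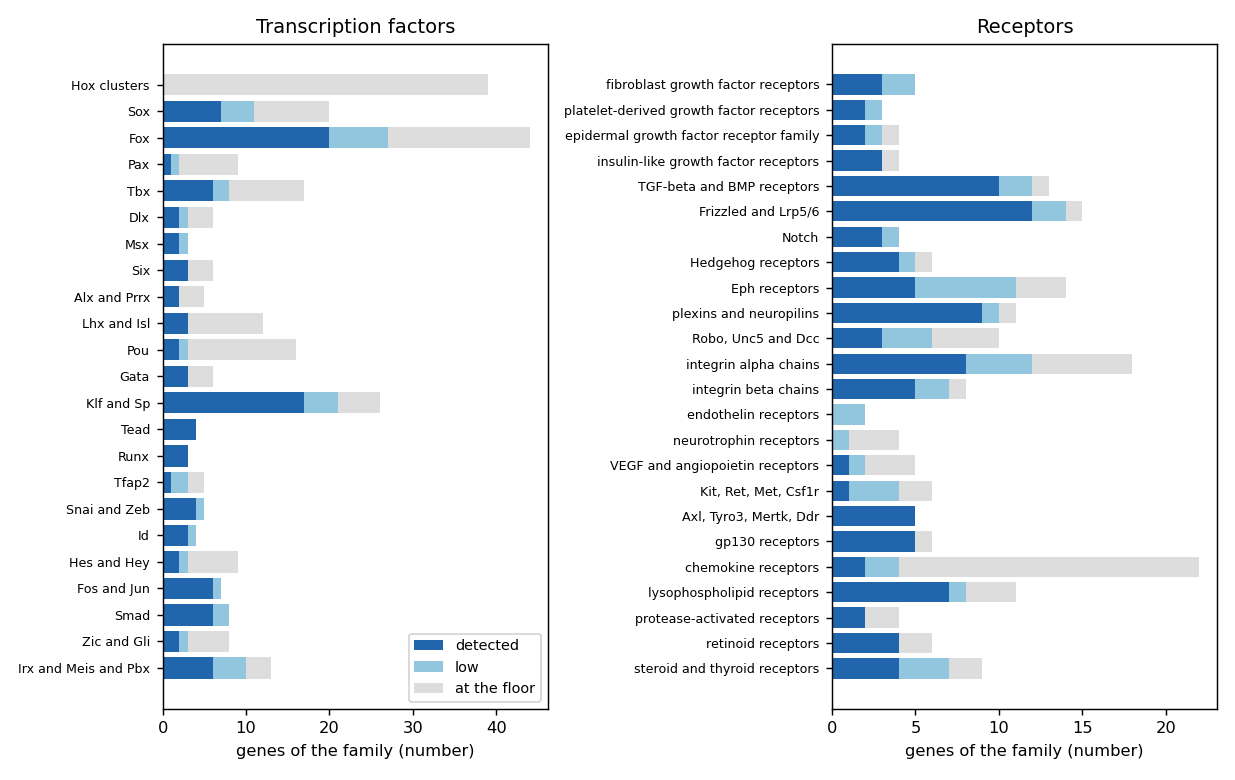
Number of genes per family of transcription factors (left) and receptors (right) that were detected, low or at the floor in the 4 wildtype cultures. All 39 *Hox* genes are at the floor, all 4 *Tead* and 3 *Runx* genes are detected, and 2 of 22 chemokine receptors are detected.

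Among 50 secreted signals, 33 were detected. *Grem1*, an antagonist of BMPs, was highest (839 TPM), followed by the chemokine *Ccl2* (560 TPM) and *Dkk2*, a modulator of Wnt signals (468 TPM). *Ccl2* was at 135, 295, 233.6 and 130 CPM. *Fgf2* was low (0.116 to 0.264 CPM), as were *Igf2* (0.0290 to 0.238 CPM) and *Il6* (0.161 to 0.782 CPM), and *Shh*, *Dkk1*, *Wnt2* and *Gdf6* had 0 counts in each culture. *Lif* was detected (43.0 TPM), at 44.9, 78.9, 63.0 and 46.1 CPM. *Igf1* was at 0.161, 0.0579, 6.48 and 0.202 CPM, and thus above 1 CPM in WT/3 alone.

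Of 28 extracellular matrix genes, 26 were detected. Collagen I (*Col1a2* 958 TPM, *Col1a1* 793 TPM), the collagen chaperone *Serpinh1* (890 TPM), *Sparc* (755 TPM) and biglycan (*Bgn*, 738 TPM) were highest. Lumican (*Lum*) was low. Periostin (*Postn*) was at 31.2, 0.550, 11.1 and 31.9 CPM and did not meet the limit through WT/2. Of the 27 genes with a mean of at least 1 CPM, 16 were lowest in WT/2, which was the lowest culture for 29.0% of all 11799 genes at that level.

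All 12 cell cycle genes were detected, led by cyclin D1 (*Ccnd1*, 674 TPM), *Pcna* (226 TPM) and *Top2a* (203 TPM), and their highest culture exceeded the lowest by a median of 1.28-fold. Of the 12, 9 were lowest in WT/3 and 6 highest in WT/2. Over all 11799 genes with a mean of at least 1 CPM, these shares were 34.5% and 27.3%. Of 7 inhibitors, *Cdkn1a* was highest (316 TPM), at 325, 372, 379 and 317 CPM, and 12 of 12 p53 target genes were detected. *Cdkn2a* had at most 3 counts in each culture and *Cdkn2b* had 0. These genes code for inhibitors of CDK4 and CDK6 and for the p53 activator p19Arf. The loss of *Cdkn2a* in many cultured lines is known, but the state of the locus was not tested here.

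Of 14 retinoid genes, a list added after values had been seen, 6 were detected. Beside *Crabp1*, these included *Crabp2* (165 TPM) and the retinoic acid hydroxylase *Cyp26b1* (75.4 TPM), while the retinoic acid forming enzyme *Aldh1a2* had 0 counts and *Aldh1a1* and *Aldh1a3* were low. *Cyp26b1* was at 94.1, 54.5, 261 and 87.8 CPM, highest in WT/3.

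Over 11799 genes with a mean of at least 1 CPM, the highest culture exceeded the lowest by a median of 1.39-fold, and by 2.45-fold at the 90th percentile. The common biological coefficient of variation, which is the spread between cultures beyond counting error, was 0.25. It was 0.179 without WT/3 and 0.240 to 0.287 without another culture. The 5 genes of smallest spread among those with a mean of at least 5 CPM were *Recql*, *Taf6*, *Pwwp2b*, *Hdac1* and *Mras*. *Recql*, a DNA helicase gene, was at 29.7, 30.0, 29.6 and 29.7 CPM, and *Hdac1*, a histone deacetylase gene, at 137, 135, 134 and 135 CPM. The 12 housekeeping genes had a median of 1.26-fold.

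A difference of at least 4-fold between the highest and the lowest culture (counts under 3 set to 3) was found for 501 of the 11799 genes (4.25%). Of the 501, WT/3 was the highest culture for 241 and the lowest for 196, and WT/2 the highest for 146 and the lowest for 178. For WT/1 these numbers were 47 and 54, and for WT/4 67 and 73. Without WT/3, 119 genes differed at least 4-fold, and without WT/2, 300. WT/1 and WT/4 differed at least 4-fold for 4 genes. Genes for which the other cultures lay within 2-fold of each other and 1 culture stood at least 4-fold away numbered 104 for WT/3 (48 higher and 56 lower), 24 for WT/2 (4 higher and 20 lower), 2 for WT/4 and 0 for WT/1.

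Among the 20 genes of largest spread, 5 were below 1 CPM in WT/3 and at 3.99 CPM or more in each other culture. *Ccnd2* (ENSMUSG00000000184, chromosome 6, 127125162 to 127152193, minus strand), which codes for cyclin D2, had 657, 1203, 5 and 1043 counts in WT/1 to WT/4, or 21.2, 34.8, 0.132 and 23.4 CPM. The ratio of WT/2 to WT/3 was 264 (95% exact interval 113 to 813, counting error only), and without WT/3 the cultures differed by 1.64-fold. *Ccnd1*, for cyclin D1, was at 905, 1170, 1010 and 859 CPM, with WT/3 inside the range of the others. *Barx1* (chromosome 13, 48662998 to 48666507, plus strand), a homeobox gene of the jaw and tooth mesenchyme, had 212, 333, 2 and 178 counts. The ratio of WT/2 to WT/3 was 182 (50.1 to 1513) from these counts, and 122 with counts under 3 set to 3. *Fgd4*, a guanine nucleotide exchange factor gene, was at 5.68, 9.33, 0.264 and 7.58 CPM.

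*Peg3* and *Rian*, which complete the 5, and *Grb10*, also among the 20, are imprinted, that is, expressed from the copy of 1 parent. *Peg3* (chromosome 7, 6703892 to 6730431, minus strand), a paternally expressed zinc finger gene, had 361, 329, 4 and 396 counts, with a ratio of WT/1 to WT/3 of 110 (42.7 to 407). *Rian*, a maternally expressed RNA of the *Dlk1*-*Meg3* locus on chromosome 12 (109603940 to 109661716), was at 24.6, 28.2, 0.740 and 24.7 CPM. *Meg3* of the same locus (109541001 to 109571726) was at 11.04, 12.9, 0.952 and 8.37 CPM, and *Mirg* (109729764 to 109749460) at 1.45, 1.07, 0.0529 and 0.381 CPM. *Grb10*, an adaptor of insulin and growth factor receptors (chromosome 11, 11930508 to 12038683, minus strand), was at 227, 218, 13.0 and 246 CPM. In each of them WT/3 lay below all other cultures, which lay within 2-fold of each other except for *Mirg*.

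In a list of 27 imprinted genes, written after these values had been seen, 13 were detected and 16 had a mean of at least 1 CPM, of which 7 were lowest and 5 highest in WT/3, where WT/3 was lowest for 34.5% and highest for 33.4% of all genes at that level. *Igf2r* (258, 242, 427 and 283 CPM), *Cdkn1c* (4.52, 4.14, 17.4 and 3.23 CPM) and *Rasgrf1* (10.3, 11.99, 33.9 and 10.3 CPM) were highest in WT/3. *Sgce* (31.3, 34.5, 34.7 and 30.7 CPM), *Peg12* and *H19* differed by less than 2-fold. *Peg10* was at 191, 62.3, 211 and 226 CPM, with WT/2 lowest. The methylation of these loci was not measured in the files used here.

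Genes that were higher in WT/3 included secreted and matrix proteins. *Mgp*, an inhibitor of calcification, was at 44.7, 9.18, 348 and 40.02 CPM. *Nid2*, a basement membrane protein, was at 8.46, 2.32, 90.9 and 7.65 CPM, and *Scube3*, a secreted protein with EGF-like domains, at 1.68, 1.39, 20.5 and 1.66 CPM. *Slco4a1*, an organic anion transporter gene, was at 4.20, 1.94, 58.7 and 3.16 CPM, and *Fam189a1* at 1.29, 3.13, 55.5 and 1.28 CPM. The crest factor *Tfap2b* was at 0.936, 1.94, 20.6 and 0.987 CPM, so that it counted as low in the class of detected genes although it exceeded 20 CPM in WT/3. *Shisa6* (0.839, 3.77, 22.2 and 1.23 CPM) and *Fam78b* (1.07, 7.71, 17.3 and 1.28 CPM) were also highest in WT/3, with WT/2 next.

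Genes that were low in WT/2 formed another group. *Postn* and *Aspn*, which code for matrix proteins of ligament and tendon-like tissue, were at 0.550 and 0.492 CPM in WT/2, against 31.2, 11.1 and 31.9 CPM for *Postn* and 11.2, 2.62 and 15.8 CPM for *Aspn* in WT/1, WT/3 and WT/4. The ratio of the highest to the lowest culture was 58.0 (37.0 to 96.6) for *Postn* and 32.1 (19.9 to 55.4) for *Aspn*. *Cyp1b1*, a cytochrome P450 gene, was at 14.9, 1.01, 1.96 and 15.01 CPM, low in both WT/2 and WT/3. *Il33*, a cytokine of stromal cells, was instead highest in WT/2, at 3.26, 16.9, 0.555 and 3.43 CPM.

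**Figure D3:**
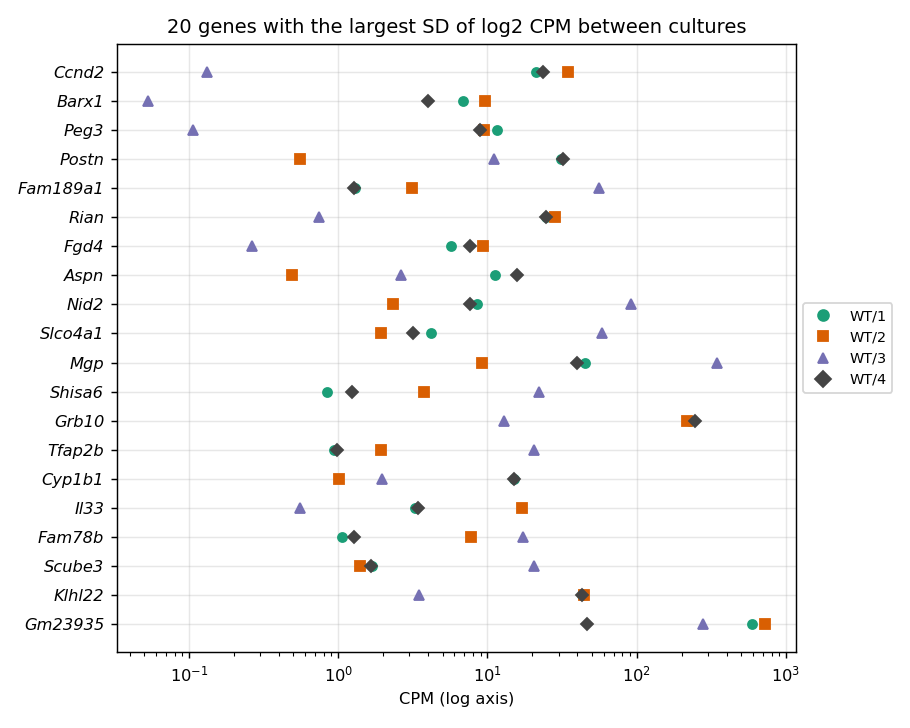
CPM on a log axis of the 20 genes with the largest SD of log2 CPM between the wildtype cultures (mean of at least 5 CPM), 1 symbol per culture. WT/3 lies far below the others for *Ccnd2*, *Barx1*, *Peg3*, *Rian* and *Grb10* and above them for *Nid2*, *Slco4a1*, *Mgp* and *Tfap2b*, while WT/2 is lowest for *Postn* and *Aspn*.

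Lists of genes that respond to the state of a culture differed in their order between cultures. Deviations are log2 differences of a culture from the mean of the 4, as medians over the members with a mean of at least 1 CPM. Over all 11799 genes, WT/2 was the lowest culture for 29.0% and the highest for 27.3%, and WT/3 for 34.5% and 33.4%.

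Of 17 cholesterol synthesis genes, all detected, 14 were lowest in WT/2 (median deviation −0.47), and 0 were highest there. *Hmgcs1*, an early enzyme of the pathway, was at 369, 190, 270 and 407 CPM. Of 16 genes of the ATF4 stress response, 14 were lowest in WT/2 (median −0.36) and 14 highest in WT/3 (0.48). *Trib3*, a pseudokinase gene of this response, was at 51.7, 15.99, 65.6 and 45.1 CPM, and *Chac1*, a glutathione-degrading enzyme gene, at 40, 23.8, 80.6 and 34.1 CPM. Of 12 interferon response genes with a mean of at least 1 CPM, 9 were lowest in WT/2 (median −0.93) and 11 highest in WT/3 (0.95). *Ifit1* was at 9.26, 1.16, 15.1 and 9.42 CPM. *Bst2*, also on this list, was highest in WT/2, at 41.5, 79.0, 46.0 and 32.8 CPM.

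Of 14 hypoxia response genes with a mean of at least 1 CPM, 11 were highest in WT/2 (median 0.35) and 9 lowest in WT/3 (−0.28). *Pgk1*, a glycolytic enzyme gene, was at 871, 1023, 651 and 921 CPM, and *Egln3*, an oxygen sensor, at 14.8, 56.9, 32.0 and 13.7 CPM. Of 13 immediate early genes with a mean of at least 1 CPM, 6 were highest in WT/3 and 6 lowest in WT/4, which was the lowest culture for 22.8% of all genes. *Ier3* was at 77.9, 116, 177 and 60.6 CPM, whereas *Jund* was at 205, 151, 139 and 76.0 CPM. Of 11 targets of serum response factor and YAP, *Ankrd1* was at 29.9, 83.9, 24.6 and 32.4 CPM and *Thbs1* at 80.2, 24.1, 18.8 and 82.6 CPM, and their list had a median of −0.22 in WT/3. Density, passage number and time of harvest of the single cultures are not given in the sources used here, and their part in these values was not tested.

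**Figure D4:**
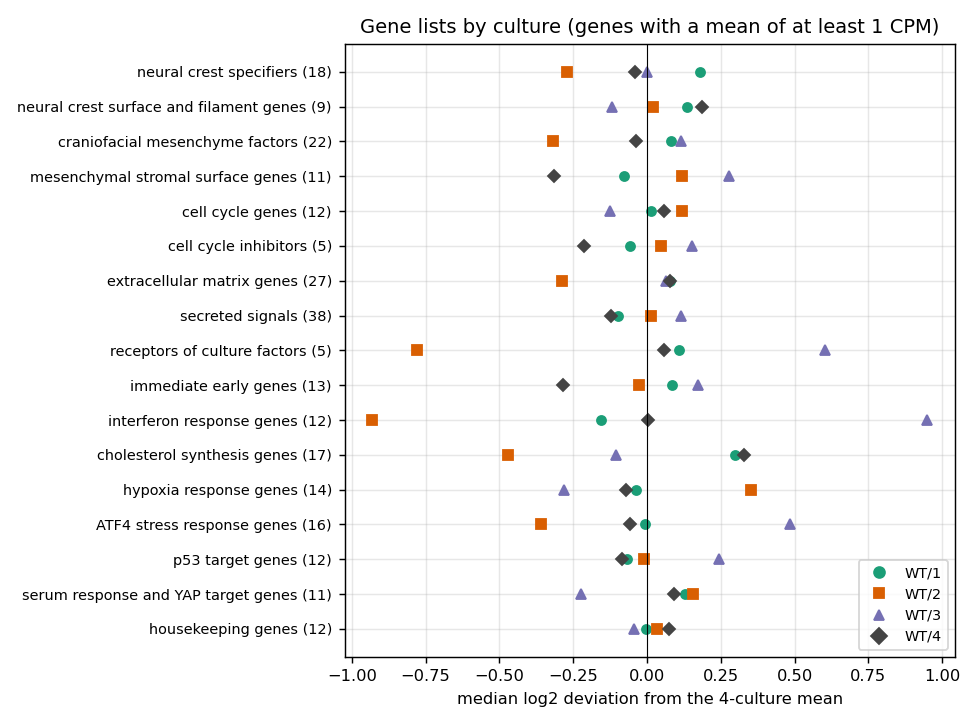
Median log2 deviation from the mean of the 4 wildtype cultures for gene lists with at least 5 members of a mean of at least 1 CPM (number in brackets), 1 symbol per culture. WT/2 is lowest for interferon response (−0.93), cholesterol synthesis (−0.47) and ATF4 response genes (−0.36), and WT/3 is highest for interferon (0.95) and ATF4 response genes (0.48).

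Medians by chromosome were close to 0 in all cultures with 1 exception. Over the 353 detected genes of chromosome 16, the median log2 deviation was 0.083, 0.071, −0.30 and 0.13 in WT/1 to WT/4. On the other 19 chromosomes with at least 20 detected genes, medians lay between −0.14 and 0.14. As a ratio, genes of chromosome 16 were at a median of 0.745 in WT/3 relative to the mean of the other cultures, and 307 of the 353 (87.0%) lay below that mean. On the other chromosomes the median ratio was 0.868 to 1.12, and 32.8% to 72.3% of the genes lay below.

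The lower level was found along the whole chromosome. In windows of 20 Mb from the start of chromosome 16, the median deviation in WT/3 was −0.24 (118 genes), −0.35 (111 genes), −0.38 (49 genes), −0.38 (16 genes) and −0.30 (59 genes). *Snai2*, *Fgd4* and *Klhl22* lie on this chromosome. *Klhl22*, an adaptor gene of a ubiquitin ligase, was at 43.1, 44.6, 3.46 and 42.8 CPM, a larger difference than the median of the chromosome, whereas *Snai2* in WT/3 was within the range of the other cultures. The number of copies of chromosome 16 in the cultures was not tested.

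**Figure D5:**
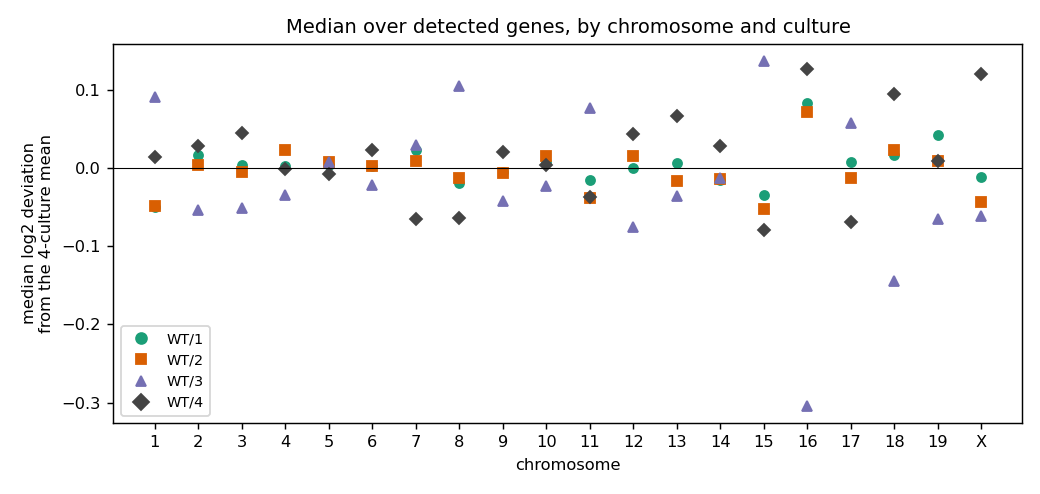
Median log2 deviation from the mean of the 4 wildtype cultures over the detected genes of each chromosome, 1 symbol per culture. Chromosome 16 in WT/3 is at −0.30, and all other medians lie between −0.14 and 0.14.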

How the data were processed

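Raw counts of polyadenylated RNA from the 4 wildtype libraries were used. The deposited counts are whole reads per gene, which the authors made from paired reads mapped to mm10. The submitters' processing notes list bcl2fastq 2.20, STAR 2.7.3, DESeq2 1.36.0 and R 4.2.1. The counting program, its annotation and its use of strand are not given in the sources used here, so antisense and overlapping genes cannot be told apart. The knockout libraries and the normalized tables were not used here.

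Library sizes were scaled by TMM (edgeR 4.0.16 in R 4.3.3). TPM used the union of exons in GENCODE M21, which is on GRCm38 (mm10), for levels of genes relative to each other, and 884 gene IDs without a match there (at most 0.101% of reads) got none. SD of log2 CPM used a prior count of 2. Intervals of ratios are exact binomial intervals. No test was made with 1 group. The calling of variable genes and the chromosome medians were checked on simulated counts. These had a coefficient of variation of 0.179, that without WT/3, against 0.25 over the 4 cultures. The changes planted in single genes were larger than the 4-fold limit, so the check gives no error rates for these data. Alternatives covered other scalings (DESeq2 1.42.0 size factors, total counts), thresholds, and each culture left out. Precision is limited by 4 cultures and, for low genes, by counts. Genes with near-identical copies are uncertain.

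Named were the markers Twist1, Snai2, Pdgfra and Cd44, the 20 genes of highest TPM and 10 of highest CPM, up to 3 leading members, floor members and members of known role in each list or family, the most variable member of a list, and the 20 most and 5 least variable genes at 5 CPM or more. Lists and families were written from general knowledge, with earlier results of these data known. The 2 lists of imprinted and retinoid genes, and the windows on chromosome 16, were added after values had been seen. Some members of the lists and families are not reported here by name, but are in the counts.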

Additional observations from a re-analysis of the deposited data

Results flagged for a closer look

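Each of 97 sets of 4 values was examined for a culture that stood apart from the others by Dixon's ratio: the markers, the genes named as most abundant, most variable and least variable, library shares, chromosomes and lists. Such a culture was found in 14 sets. Of these, 10 were among the 20 most variable genes, which were chosen for their spread between the same cultures, so that they are a description. Of the other 77 sets, 4 were flagged, and chance flags about 1 in 20.

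WT/3 was far above the other cultures for *Fam189a1* (55.5 CPM), *Nid2* (90.9 CPM), *Slco4a1* (58.7 CPM), *Mgp* (348 CPM), *Shisa6* (22.2 CPM), *Tfap2b* (20.6 CPM) and *Scube3* (20.5 CPM). It was far below them for *Rian* (0.740 CPM), *Grb10* (13.0 CPM) and *Klhl22* (3.46 CPM).

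Beyond single genes, WT/3 stood apart in the median deviation of chromosome 16 (−0.30 on the log2 scale) and of the targets of serum response factor and YAP (−0.22). WT/2 stood apart in the median deviation of extracellular matrix genes (−0.29). WT/4 stood apart for chromosome 14, where its median deviation was 0.029 and the distance between all cultures was small.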

How the results depend on the processing

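The number of detected genes (11249) was 11240 and 11247 with total counts and DESeq2 size factors, 11277 to 11397 with a culture left out, and 10566 to 11898 with limits of 2 and 0.5 CPM. The number of genes that varied at least 4-fold (501) rested on WT/3 and WT/2. It was 119 to 475 with a culture left out, lowest without WT/3 and 300 without WT/2. It was 1329 without a filter on low counts, 211 with a mean of at least 5 CPM and 332 with a pseudocount of 0.5 CPM. The first of these tests more genes, the second fewer, and a pseudocount lowers folds of low genes. With the other scalings it was 503 and 502. The common coefficient of variation was 0.179 to 0.287 with a culture left out, lowest without WT/3. The median of chromosome 16 in WT/3 was −0.31 with both other scalings and −0.28 to −0.26 with another culture left out, alternatives chosen after seeing the data. WT/3 is part of the mean, so its deviation is smaller with fewer cultures even at the same ratio to the others. Of the 20 most variable genes, 17 were also among the 20 of largest coefficient of variation in edgeR and 9 among the 20 at a mean of at least 1 CPM. No paired analysis was possible because the values come from 1 group and no test. With 1 CPM at 31.0 to 44.6 reads, a low gene's spread holds counting error.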
